A study of Mus musculus with 12 samples.

Results

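Gene expression was compared between Ts1Cje Trib1 leukaemia lines and Ts1Cje hematopoietic cells. The members were the 3 arrays titled Ts1Cje + Trib1 WT and the 3 arrays titled Ts1Cje, which are 6 of the 12 arrays of the series, and all 45037 probe sets that are not controls were considered. Ts1Cje is a mouse model of Down syndrome in which part of chromosome 16, matching part of human chromosome 21, is present 1 time more than usual. Both groups compared are titled Ts1Cje, and copy number was not measured. The lines with Trib1 are labelled as acute myeloid leukaemia (AML) cell lines that express Trib1, and the cells without it are labelled only as hematopoietic cells. The other 6 arrays hold B6 cells and B6 Trib1 lines, 3 each, which form the same contrast without the trisomy. All 4 groups were kept in IMDM medium with IL-3 at 5 ng/ml and serum at 10%, untreated, and 100 ng of total RNA was labelled per array. The vector and promoter that drive Trib1, the number of lines per genotype, and the age and sex of the mice are not given in the sources used here. Nor do the labels tell whether the 3 arrays within a group are separate mice, lines or cultures, and the p-values therefore cover only array-to-array spread, which may be technical. Trib1 expression and leukaemic state went together, and their parts in any difference cannot be told apart.

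Trib1 is a pseudokinase of the Tribbles family. It serves as a scaffold that brings C/EBP transcription factors to the ubiquitin ligase COP1 for degradation, and it binds MEK1 and raises signalling through ERK. C/EBP alpha is needed for granulocyte formation, C/EBP beta and C/EBP epsilon act later in granulocytes and macrophages, and loss of C/EBP activity with high ERK signalling is a known route to AML in mice. IL-3 supports mast cells, basophils, megakaryocyte progenitors and immature myeloid cells in culture. GATA2 and GATA1 are the zinc-finger factors of mast cells, basophils, megakaryocytes and erythroid cells, and PU.1 (Spi1) is the Ets factor of granulocytes and macrophages.

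Each value is the deposited intensity of a probe set on a linear scale. Array medians lay between 30.5 and 32.0 over all 12 arrays and maxima between 8041 and 8685. Values near or below the 40th percentile of an array (22 to 23.5) are called dim here. A gene's difference is the mean of log2(intensity + 15) in Ts1Cje Trib1 minus that in Ts1Cje, with its standard error (SE), and the added 15 draws the differences of dim genes towards 0. The test was limma's, with Benjamini-Hochberg adjustment over 12560 genes and a threshold of 0.05, and "rose" and "fell" are used only of genes that passed it. Correlations across genes were 0.997 to 0.999 between arrays of a group and 0.915 to 0.916 between the groups. The number of arrays, 3 a group, limits the precision.

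Promoters of 6 genes are printed first because they belong to gene groups that moved in opposite directions: the mast cell and megakaryocyte genes Ms4a2, Cpa3 and Gp5, which rose, and the neutrophil primary granule genes Elane, Prtn3 and Mpo, which fell. They were chosen among their lists because they hold a match to a searched motif, and Gp5 was also chosen after its values were seen. Each is the 250 bases before the gene's start in RefSeq, build GRCm38.p6, read 5′ to 3′ on the gene's strand. Capitals mark matches on either strand to 4 motifs. The GATA-like motif searched was AGATAA. The motif that resembles a PU.1 site was GAGGAAGT. The C/EBP-like motif was TTGCNNAA, where N is any base. For MYB the letters were TAACNG. No match printed overlaps another.
Ms4a2: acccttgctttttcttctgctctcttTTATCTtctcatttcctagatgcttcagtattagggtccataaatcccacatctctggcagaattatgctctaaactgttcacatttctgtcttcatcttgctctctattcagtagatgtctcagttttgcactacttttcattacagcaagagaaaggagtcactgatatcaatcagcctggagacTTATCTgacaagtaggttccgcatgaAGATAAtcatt
Cpa3: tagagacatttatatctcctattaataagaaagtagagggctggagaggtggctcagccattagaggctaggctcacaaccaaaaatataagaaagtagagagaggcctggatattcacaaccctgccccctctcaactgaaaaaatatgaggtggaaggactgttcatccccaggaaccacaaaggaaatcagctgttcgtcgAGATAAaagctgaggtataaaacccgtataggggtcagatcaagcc
Gp5: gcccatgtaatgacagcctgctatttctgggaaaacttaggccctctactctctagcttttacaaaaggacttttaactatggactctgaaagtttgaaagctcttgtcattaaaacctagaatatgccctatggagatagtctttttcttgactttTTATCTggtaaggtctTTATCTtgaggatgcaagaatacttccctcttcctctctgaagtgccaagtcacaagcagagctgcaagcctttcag
Elane: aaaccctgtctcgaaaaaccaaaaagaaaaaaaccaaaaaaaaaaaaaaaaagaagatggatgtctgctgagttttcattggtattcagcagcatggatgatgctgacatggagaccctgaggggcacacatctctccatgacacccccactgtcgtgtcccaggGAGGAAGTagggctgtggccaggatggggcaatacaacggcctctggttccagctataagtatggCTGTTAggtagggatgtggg
Prtn3: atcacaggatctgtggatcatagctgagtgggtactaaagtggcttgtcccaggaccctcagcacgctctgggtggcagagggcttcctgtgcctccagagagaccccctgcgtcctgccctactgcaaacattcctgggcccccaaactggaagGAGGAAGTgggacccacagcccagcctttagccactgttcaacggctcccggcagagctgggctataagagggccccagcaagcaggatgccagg
Mpo: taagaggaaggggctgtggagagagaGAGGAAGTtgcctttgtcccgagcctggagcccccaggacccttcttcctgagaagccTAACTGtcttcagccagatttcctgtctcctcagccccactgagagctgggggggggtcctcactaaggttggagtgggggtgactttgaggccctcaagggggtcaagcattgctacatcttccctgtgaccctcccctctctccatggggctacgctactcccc
In Ms4a2, on chromosome 19 (chr19:11623720-11623969, minus strand), the GATA-like matches began 224, 37 and 11 bases before the start. Cpa3, on chromosome 3 (chr3:20242182-20242431, minus strand), had its match 46 bases before the start, and Gp5, on chromosome 16 (chr16:30310782-30311031, minus strand), had matches at 93 and 77. Elane (chr10:79886062-79886311, plus strand) had its PU.1-like match 85 bases before the start and its MYB-like match at 20. Prtn3 (chr10:79879417-79879666, plus strand), a neighbour of Elane, had a PU.1-like match at 95, and Mpo (chr11:87793534-87793783, plus strand) had a PU.1-like match at 224 and a MYB-like match at 166.

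Counted in the window of 250 bases before to 50 bases after the start, AGATAA was found in 5 of 17 mast cell and basophil promoters (29.4%) and 5 of 16 megakaryocyte promoters (31.2%). It stood in 846 of 10127 promoters of all genes tested (8.35%), in 57 of 410 promoters of genes at least 2-fold higher in the lines (13.9%) and in 54 of 609 of those at least 2-fold lower (8.87%). It was also in 5 of 21 promoters of secondary and tertiary granule genes (23.8%), all of which fell, and in 2 of 19 monocyte and macrophage promoters, and none of the 8 primary granule promoters held it. The letters GAGGAAGT were found in 3 of 8 primary granule promoters (37.5%), 4 of 21 promoters of secondary and tertiary granule genes (19%) and 3.82% of the genes tested. They stood in 5.12% of promoters of genes at least 2-fold higher and 5.91% of those at least 2-fold lower. TTGCNNAA stood in 7 of 21 secondary and tertiary granule promoters (33.3%), but also in 5 of 17 mast cell and basophil promoters (29.4%), against 10.2% of the genes tested. Its shares were 11.2% among genes at least 2-fold higher and 13.6% among those at least 2-fold lower. TAACNG, the commonest at 22.6% of the genes tested, stood in 2 of the 8 primary granule promoters, 2 of 21 secondary and tertiary granule promoters (9.52%), 6 of 17 mast cell and basophil promoters (35.3%) and 1 of 16 megakaryocyte promoters (6.25%). These are counts of letters and no test was made. The search for AGATAA was added after the values were seen.

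Trib1 itself was measured by 2 probe sets. The brighter had intensities of 70.5, 69.5 and 76 in Ts1Cje and 41.8, 47.3 and 48.6 in Ts1Cje Trib1, so it fell by 0.52 (SE 0.06, limma adjusted p = 7.04e-06) and the groups did not overlap. The other was dim on every array, at 17.6, 21.5 and 20 in Ts1Cje and 18.6, 17.3 and 20.2 in Ts1Cje Trib1. Neither is known to lie in the expressed construct, so they do not check the Trib1 label. Haematopoietic markers were measured in both groups: Ptprc (CD45) was at 2966, 2901 and 2888 in Ts1Cje and 2066, 2099 and 2021 in Ts1Cje Trib1, and the sum over 16 pan-haematopoietic genes was 33751 to 34560 and 29062 to 30698.

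In all, 7644 of 12560 genes passed (60.9%), of which 4280 rose (34.1%) and 3364 fell (26.8%). Rises of at least 2-fold numbered 526 (4.19%) and falls of that size 764 (6.08%), so falls were fewer in number but more often large. The median difference over all genes was 0.02, with quartiles of -0.15 and 0.23, and single genes ranged from -7.3 to 6.49. The 2 groups did not overlap for 8075 genes (64.3%), and 7412 (59.0%) both passed and did not overlap. Over all 28543 kept probe sets, named or not, 15450 passed (54.1%), 8681 higher (30.4%) and 6769 lower (23.7%), of which 942 (3.3%) and 1353 (4.74%) differed at least 2-fold.

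**Figure D1:**
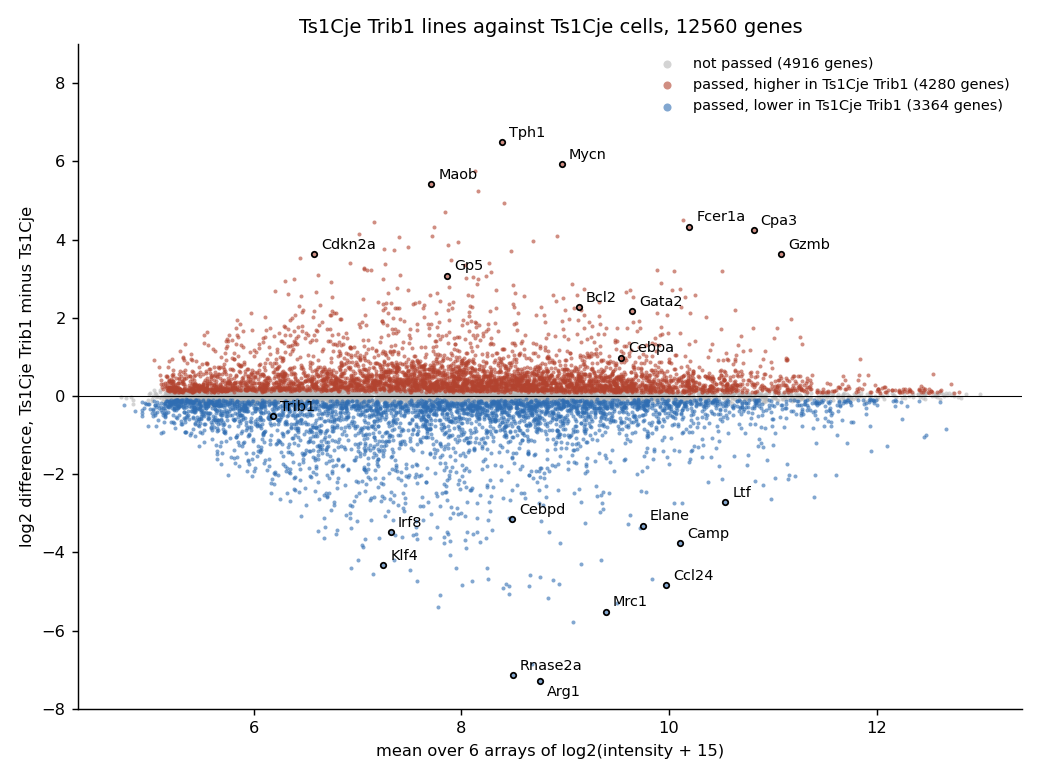
Log2 difference between Ts1Cje Trib1 and Ts1Cje (vertical axis) against the mean of log2(intensity + 15) over the 6 arrays (horizontal axis), with 1 point per gene, coloured by whether and in which direction it passed. Tph1 (6.49) and Mycn (5.92) lie highest, and Arg1 (-7.3) and Rnase2a (-7.14) lowest.

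The largest rise was that of Tph1, the rate-limiting enzyme of serotonin synthesis outside the nervous system. It was dim in Ts1Cje, at 22, 19.5 and 19.8, and stood at 3197, 3234 and 3078 in Ts1Cje Trib1, a difference of 6.49 (SE 0.05, limma adjusted p = 1.56e-17). Maob, a monoamine oxidase, was likewise dim in Ts1Cje (15.8, 17 and 18.5) and bright in the lines (1382, 1365 and 1315), with a difference of 5.41. Mycn, the MYC family member of early neural and haematopoietic cells, went from 36, 59.6 and 54.8 to 3876, 3904 and 3870, or 5.92 (SE 0.11, limma adjusted p = 2.96e-14). Other probe sets of Mycn rose by less, by 3.1 and 1.66. All 3 genes separated the groups without overlap, and Tph1 and Maob were dim on every Ts1Cje array. The rest of the 15 largest rises were Pga5, a pepsinogen gene (5.74), Tmtc2 (5.23), Cd200r3 (4.94), the p53 target Perp (4.71), the actin-severing gene Scin (4.49), Cyp4a12a (4.44), Fcer1a (4.33), Cma1 (4.31), Cpa3 (4.24), the secretory pathway pseudokinase Fam20a (4.15), the cytokine Lif (4.09) and the mast cell adaptor Clnk (4.08).

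The counts of each gene list below are read against the shares over all genes, of which 34.1% rose and 26.8% fell. Mast cell and basophil genes were higher as a list. Of 20 measured members 17 rose (85.0%) and 1 fell, and the median was 0.79 against 0.02 over all genes, and 9 rose at least 2-fold. The summed intensity of the list went from 15593 to 16129 in Ts1Cje to 42985 to 44243 in Ts1Cje Trib1. As in every bulk sample, fewer cells of a type and less RNA per cell cannot be told apart, so neither can more of them.

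Fcer1a, the IgE-binding chain of the high-affinity IgE receptor, had 272, 229 and 238 in Ts1Cje and 5333, 5230 and 5129 in Ts1Cje Trib1, a difference of 4.33 (SE 0.05, adjusted p = 6.37e-16 in limma). Its beta chain gene Ms4a2, whose promoter is printed above, went from 557, 556 and 534 to 2415, 2448 and 2480 (2.13). The gamma chain gene Fcer1g, which other Fc receptors share, was bright in both groups (2569, 2675 and 2805 and 3061, 3080 and 2969) and rose by only 0.18. The receptor chains thus moved by unequal amounts, the chains particular to it most.

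Among granule genes, carboxypeptidase A3 (Cpa3) rose from 380, 397 and 420 to 7887, 7899 and 7652, or 4.24 (SE 0.05, limma adjusted p = 3.27e-16). The chymase gene Cma1 rose from 31.9, 35.6 and 31.3 to 983, 970 and 866, or 4.31. Rab27b, which serves secretory granule release in mast cells and platelets, rose from 96.5, 73.3 and 82.5 to 1287, 1261 and 1279 (3.71). Cd200r3, an activating receptor of mast cells and basophils, rose from 61, 46 and 35.4 to 1927, 1860 and 1838. Not all of the list moved so far. The histidine decarboxylase gene Hdc and the basophil protease gene Mcpt8, named after their values were seen, rose by 0.48 and 0.5, and Il4 fell by 0.25 (from 132, 111 and 118 to 88.2, 94.1 and 117, where the groups overlapped). Mcpt1, Mcpt2, Mcpt4 and Mcpt9 did not pass the filter on dim probe sets. Tpsab1 and Mitf, the members that did not pass, were at 0.03 and 0.04.

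Among enzymes of leukotrienes, lipid mediators of mast cells and eosinophils, 2 had clear rises. Alox5, arachidonate 5-lipoxygenase, went from 466, 482 and 504 to 2976, 2979 and 2901 (2.57), and leukotriene C4 synthase, Ltc4s, from 87.5, 87.7 and 90.6 to 197, 202 and 218 (1.09). The list of leukotriene and prostaglandin genes as a whole had 8 of 18 up (44.4%) and 7 down (38.9%), with a median of -0.01. The lipoprotein-associated phospholipase Pla2g7 (-1.97), the leukotriene receptor gene Cysltr1 (-1.56) and the leukotriene B4 receptor gene Ltb4r1 (-1.13) fell.

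The cytokine genes Lif and Il6 rose too. Lif went from 106, 94.2 and 107 to 2005, 2032 and 1924 (4.09, SE 0.05, limma adjusted p = 4.82e-16), and Il6 from 1007, 910 and 969 to 2781, 2820 and 2738 (1.52). Of the list of T and NK cells, 3 granzyme genes, which mast cells and basophils can also express, rose. Granzyme B (Gzmb) went from 598, 548 and 661 to 7844, 7641 and 7355 (3.63), granzyme A (Gzma) from 108, 81.5 and 81.2 to 1587, 1681 and 1609 (3.97) and granzyme C (Gzmc) from 14.3, 14.2 and 13.5 to 188, 163 and 165 (2.69). Other genes of cytotoxic granules, named after their values were seen, had smaller differences: Nkg7 rose by 0.41, and the perforin gene Prf1 did not pass (41.7, 41.4 and 37.2 and 39.8, 41.1 and 40.8, 0.01). Cd3d, a chain of the T-cell receptor complex, moved the other way, from 123, 120 and 127 to 34.6, 30.1 and 38, and the NK receptor gene Klrd1 fell from 120, 104 and 99.3 to 21.6, 23.1 and 27.5. Over the list 9 of 25 rose (36%, near the 34.1% of all genes) and 11 fell (44%, against 26.8%), with a median of -0.11 that was -0.45 under a stricter filter on dim probe sets, while its sum went from 2887 to 2952 up to 12326 to 12977, of which Gzmb alone had a mean of 7613.

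Megakaryocyte and platelet genes formed the list with the highest median, 1.42: 20 of 21 members rose, 1 fell, and 14 rose at least 2-fold. The sum over the list went from 11595 to 12161 in Ts1Cje to 25792 to 26828 in the lines. Clec1b, the podoplanin receptor of platelets, rose from 36.2, 33.1 and 29.6 to 652, 646 and 675 (3.81). Integrin alpha IIb (Itga2b, CD41), which pairs with Itgb3 as the fibrinogen receptor, rose from 204, 209 and 221 to 1396, 1386 and 1256 (2.59), and Itgb3 from 374, 348 and 335 to 1232, 1237 and 1176 (1.75).

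The receptor for von Willebrand factor was measured through Gp1bb, which rose by 3.41, from 92.5, 74.2 and 73.1 to 972, 969 and 1027. Gp5, of the same complex, went from 58.6, 53.7 and 87.7 to 690, 676 and 618 (3.07, SE 0.11, limma adjusted p = 1.6e-11). Array 3 of Ts1Cje was the highest of its group for Gp5, and the groups still did not overlap. The thrombin receptor gene F2r rose from 1158, 1195 and 1110 to 4611, 4561 and 4546. The platelet chemokines were already bright in Ts1Cje: Pf4 moved only from 4030, 3876 and 3929 to 4314, 4391 and 4294 (0.13), and Ppbp from 1560, 1556 and 1556 to 3958, 4070 and 3673 (1.32). P2ry12, the ADP receptor of platelets and also a gene of macrophages, was the member that fell, from 94.8, 79.6 and 86.8 to 15.8, 16.2 and 16.7.

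Of 14 erythroid genes measured, 6 rose (42.9%, against 34.1% of all genes) and 2 fell (14.3%, against 26.8%). Their median was 0.11, and 0.77 under the stricter filter, which leaves out the dimmest members. The rises were those of Hbb-y, an embryonic globin gene, dim in Ts1Cje (10.8, 11.8 and 9.14) and at 278, 286 and 281 in the lines (3.54), the adult globin gene Hba-a1 (431, 451 and 438 to 1983, 1976 and 1882, 2.11), the factors Tal1 (2.5) and Gfi1b (1.84), Car2 (1.11) and Epor (0.42). Slc4a1 and Klf1, defining genes of red cell maturation that were, like Epor, named after their values were seen, were at means of 29 and 49.2 in Ts1Cje and did not pass. Hba-a1 has a near-identical neighbour, Hba-a2, whose transcripts its probe set may share.

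**Figure D2:**
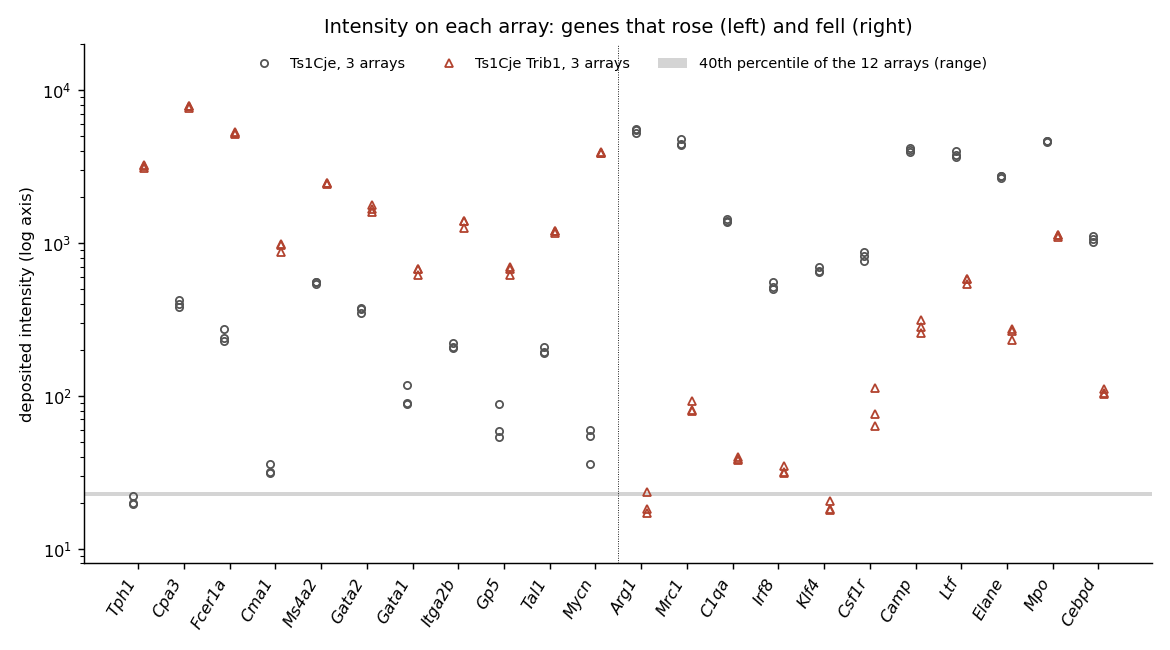
Deposited intensity of 22 genes (log axis) on the 3 Ts1Cje arrays (circles) and the 3 Ts1Cje Trib1 arrays (triangles), with the range of the arrays' 40th percentiles as a grey band. Every gene drawn separates the groups without overlap, and Tph1 in Ts1Cje and Arg1 and Klf4 in Ts1Cje Trib1 lie in or near the grey band.

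Of the transcription factors of mast cells, megakaryocytes and erythroid cells, Gata2 rose from 346, 373 and 369 to 1667, 1759 and 1596 (2.16, SE 0.04, limma adjusted p = 5.41e-14). Gata1, named after its values were seen, rose from 118, 89.8 and 88.5 to 672, 677 and 614 (2.56). Tal1, which works with GATA factors, rose from 208, 194 and 190 to 1196, 1198 and 1159 (2.5), and Gfi1b, the repressor of megakaryocytes and erythroid cells, from 92.4, 100 and 87.1 to 385, 357 and 373 (1.84). These 4 genes separated the groups on every array, while Mitf and Klf1 did not pass, as given above.

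Factors of granulocytes, monocytes and dendritic cells were lower. Of the 18 members of the C/EBP and myeloid factor list, 12 fell and 5 rose, with a median of -1.32. Cebpd fell from 1057, 1010 and 1110 to 103, 110 and 104, or -3.15 (SE 0.04, limma adjusted p = 1.06e-15), and Cebpb from 2849, 2964 and 2800 to 1126, 1201 and 1191, or -1.28 (limma adjusted p = 1.88e-12). The mRNA of Cebpa moved the other way, from 501, 507 and 533 to 1105, 1074 and 921 (0.98, limma adjusted p = 6.37e-09), and Cebpg did not pass (0.05). Trib1 acts on C/EBP proteins, which arrays do not measure.

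Spi1, which encodes PU.1, fell from 928, 864 and 877 to 320, 309 and 285 (-1.5). Irf8, needed for monocytes and dendritic cells, fell from 555, 498 and 511 to 34.7, 31.3 and 31.9 (-3.49), close to the dim range in the lines. Klf4, a monocyte factor, fell from 695, 648 and 652 to 20.6, 17.9 and 18.1 (-4.33) and was dim there. Gfi1, the granulocyte relative of Gfi1b, fell from 630, 592 and 596 to 121, 91.4 and 110 (-2.35), so the 2 GFI factors moved in opposite directions. Myb (0.6), Runx1 (0.78) and Id2 (0.31) rose by less.

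Monocyte and macrophage genes had the lowest median of all lists, -2.53, with 23 of 25 falling, 2 rising and 22 falling at least 2-fold. Their sum went from 33965 to 34394 in Ts1Cje to 6428 to 6517 in Ts1Cje Trib1. Arg1, arginase, a gene of alternatively activated macrophages, had the largest fall of all genes tested. It had 5269, 5531 and 5457 in Ts1Cje and 18.2, 23.3 and 17.2 in Ts1Cje Trib1, where it was dim, and fell by 7.3 (SE 0.06, limma adjusted p = 1.56e-17). The resistin-like gene Retnla fell from 3689, 4199 and 4024 to 62.7, 48.3 and 62.8, and the mannose receptor gene Mrc1 from 4775, 4395 and 4441 to 92.4, 80.2 and 79.4. Both are markers of macrophages exposed to IL-4, and their differences were -5.78 and -5.52.

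The complement C1q genes fell together. C1qa went from 1359, 1397 and 1429 to 38.6, 39.5 and 37.9 (-4.72), and C1qb and C1qc were at -4.85 and -4.4. The scavenger receptor gene Cd163 fell by 4.55, Tgfbi fell by 4.68 and the metal transporter gene Slc11a1 fell by 2.99. Csf1r, the receptor that macrophages need for survival, fell from 876, 762 and 821 to 76.1, 113 and 63 (-3.11), with array 2 the highest of the lines. The 2 members that rose were the chemokine receptor genes Ccr2 (from 870, 720 and 688 to 1206, 1155 and 1246, 0.66) and Cx3cr1 (1.27).

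The other genes among the 15 largest falls were Rnase2a, an eosinophil-type ribonuclease (from 4248, 4210 and 4323 to 14.4, 15.7 and 16, -7.14), Igkj1, an immunoglobulin kappa segment (-6.85), the endothelin receptor Ednrb (-5.39), the chemokines Ccl8 (-5.3), Ccl12 (-4.92) and Ccl24 (-4.84), the endocytic adaptor Dab2 (-5.16), Ly86, a partner of the receptor RP105 (-5.1), the fatty acid carrier Fabp4 (-5.07), Olfm1 (-4.87) and the syndecan Sdc4 (-4.84). Several of these are macrophage products, and each separated the groups on all 6 arrays.

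Neutrophil granule genes were lower in the lines without exception among secondary and tertiary granule genes: 24 of 24 measured fell, 19 of them at least 2-fold, with a median of -2.35. The sum over the list went from 63147 to 63344 down to 21097 to 21432. Cathelicidin (Camp) fell from 3931, 4041 and 4159 to 259, 282 and 311 (-3.77), lactoferrin (Ltf) from 3666, 3782 and 3988 to 579, 579 and 539 (-2.72) and the collagenase gene Mmp8 from 975, 1015 and 977 to 190, 193 and 182 (-2.3). Olfm4, which marks a subset of neutrophils, and Cd177, a neutrophil surface protein, had the largest falls of the list, at -4.69 and -4.64. Padi4 (-0.8) and Anxa1 (-0.65), which need not be granule proteins, fell by less. Every member's mean in the lines stayed above the dim range.

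Primary granule genes, made earlier at the promyelocyte stage, split. Elastase (Elane) fell from 2648, 2724 and 2734 to 267, 273 and 231 (-3.32), proteinase 3 (Prtn3) from 4008, 4127 and 4149 to 1196, 1182 and 1266 (-1.74), and myeloperoxidase (Mpo) from 4669, 4570 and 4611 to 1131, 1089 and 1126 (-2.03). These are the genes whose promoters are printed above. Ms4a3 (-1.26) and lysozyme (Lyz2, -0.78) fell too. Of the 8 members 6 fell and 2 rose (median -1.02). The members that rose were Cst7, a cystatin of cytotoxic and myeloid cells (from 1611, 1589 and 1647 to 3090, 3111 and 2992, 0.92), and Srgn, the granule proteoglycan serglycin that mast cells also use (0.3). The neutrophil receptor gene Csf3r fell from 426, 398 and 426 to 78.5, 80.1 and 80.9 (-2.19).

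Of only 6 eosinophil genes measured, 2 rose and 3 fell, and the median was -0.23, or -0.5 under the stricter filter. Epx, eosinophil peroxidase, fell from 442, 357 and 347 to 54.5, 55.3 and 48.6 (-2.54) and the major basic protein gene Prg2 from 409, 394 and 405 to 195, 206 and 214 (-0.93). The surface lectin gene Siglecf rose from 29.9, 20.6 and 20.9 to 235, 230 and 224 (2.67).

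Genes of phagocyte functions were mostly lower too. Lysosomal genes showed 23 falls and 2 rises among 26 measured (median -0.99), among them legumain, Lgmn, from 1910, 1911 and 2031 to 64.5, 74 and 65.5 (-4.57), and cathepsin L, Ctsl, from 4992, 4988 and 5165 to 805, 792 and 791 (-2.64). Among complement, Fc receptor and oxidase genes 14 of 17 fell and 3 rose (median -0.96). The oxidase subunit gene Cybb fell from 1544, 1526 and 1520 to 261, 256 and 286 (-2.45), the integrin gene Itgam (CD11b) from 672, 723 and 722 to 192, 178 and 180, and the anaphylatoxin receptor gene C5ar1 fell by 2.58. Cd55, which protects cells from complement, stood apart with a rise from 97.5, 70.4 and 76 to 804, 773 and 764 (3.05).

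Pattern receptors showed 18 falls and 1 rise among 21 measured (median -1.0). Tlr1 went from 255, 234 and 233 to 14.6, 14.6 and 16.8, Tlr4 from 828, 763 and 790 to 185, 176 and 190, and the beta-glucan receptor gene Clec7a from 2749, 2932 and 2918 to 392, 424 and 444. Irak3, an inhibitor of this pathway, was the member that rose (0.61). Inflammatory NF-kB targets showed 20 falls and 6 rises among 31 measured (median -0.61), with Ccl2 down from 2665, 2797 and 2800 to 150, 148 and 115, Ccl7 at -4.7 and the acute-phase gene Saa3 at -3.69. Il6 and Cd69, an early activation antigen, were among the members that rose (1.52 and 2.19). Chemokine and receptor genes showed 20 falls and 5 rises among 27 measured, where Ccl5 rose by 1.33.

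Antigen presentation by MHC class II showed 13 falls and 2 rises among 16 measured (median -1.34). H2-Ab1 went from 1189, 1047 and 1107 to 368, 389 and 376 (-1.52) and H2-Eb1 from 1971, 1869 and 1962 to 785, 799 and 752 (-1.3). H2-Oa rose by 1.73 while H2-Ob, which encodes its partner chain in the peptide-loading regulator H2-O, fell by 2.17. Another probe set of H2-Ob fell by less, at -0.53. For MHC class I genes the shares, 5 of 17 up (29.4%) and 4 down (23.5%), were near the 34.1% and 26.8% of all genes (median -0.03). Dendritic cell genes showed 12 falls and 0 rises among 13 measured (median -1.51), among them Ccr9 (-3.44) and Clec10a (-3.04). H2-Q4 and other class I genes have close relatives whose transcripts a probe set may share.

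B cell genes showed 18 falls and 1 rise among 20 measured (median -1.72). The coactivator gene Pou2af1 fell by 4.2, and the surrogate light chain genes Vpreb1 (from 622, 560 and 577 to 32.4, 37.3 and 34.2) and Vpreb2 were at -3.6 and -2.4. Ms4a1 (CD20) went from 455, 512 and 475 to 20.1, 21.2 and 19.1, which is dim. The list sum was 7595 to 7829 in Ts1Cje and 5179 to 5509 in the lines, and its brightest member, Cd24a, which other blood cells also express, was the one that rose (0.54). Ighm, Pax5 and Rag2, the last 2 named after their values were seen, had means near the dim range in both groups.

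**Figure D3:**
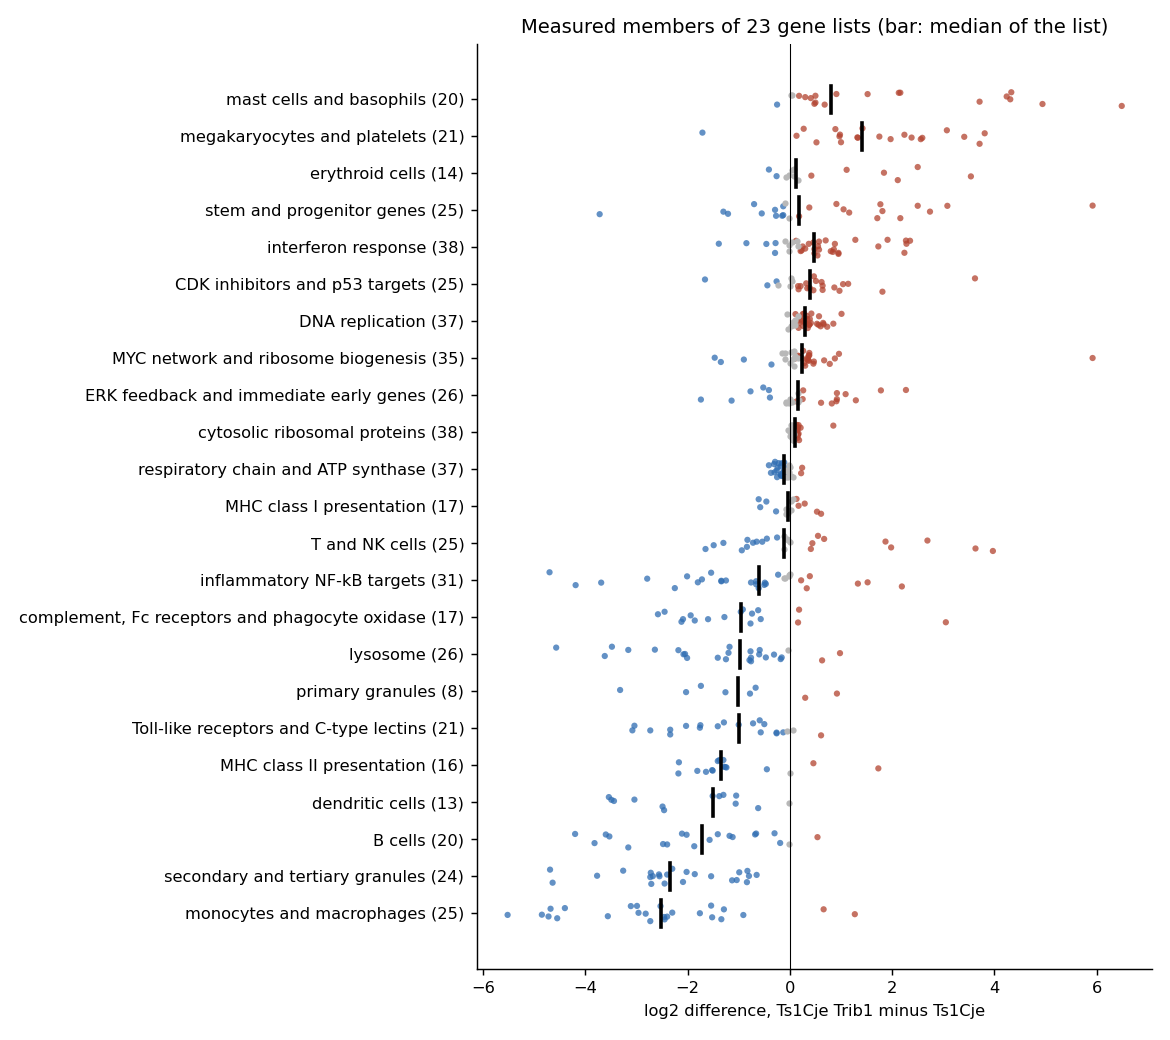
Log2 differences of the measured members of 23 gene lists, with 1 point per gene (red rose, blue fell, grey did not pass), a black bar at each list's median, and the number measured in parentheses. Megakaryocyte and mast cell lists lie furthest to the right, with medians of 1.42 and 0.79. The monocyte list and the secondary and tertiary granule list lie furthest to the left, with medians of -2.53 and -2.35.

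Genes of stem and progenitor cells showed 13 rises (52%, against 34.1% of all genes) and 10 falls (40%, against 26.8%) among 25 measured. Their median was 0.18, 0.43 with the probe sets of each gene averaged and 0.91 under the stricter filter, and the sum went from 5502 to 5614 up to 14245 to 14639. Among the rises were Angpt1 (from 47, 35.1 and 48.9 to 521, 498 and 421, 3.08), the Ikaros relative Ikzf2 (2.74), Sox4 (from 541, 512 and 478 to 1787, 1790 and 1757, 1.77), Meis1 (1.71) and Mycn, given above. Prom1 (CD133) fell from 829, 846 and 860 to 45.6, 50.6 and 55.4 (-3.72), and the receptor gene Flt3 from 124, 144 and 157 to 45.2, 52.7 and 46.8 (-1.3). Among HOX, MEIS and PBX genes 3 of 13 rose (23.1%) and 4 fell (30.8%), near the shares over all genes or below. Hoxa9, often high in AML, was low in both groups, at 56.7, 68.8 and 72.3 in Ts1Cje and 52.2, 51 and 51.9 in the lines (-0.27).

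In the list of IL-3 receptor family and STAT5 targets 14 of 25 rose (56%, against 34.1% of all genes) and 9 fell (36%, against 26.8%), with a median of 0.24. Csf2rb2, the beta chain particular to the mouse IL-3 receptor, rose from 1520, 1389 and 1416 to 4253, 4154 and 3985 (1.51), and cyclin D2 (Ccnd2) from 1112, 1211 and 1144 to 2543, 2627 and 2659 (1.17). The receptors for M-CSF, G-CSF and FLT3 ligand fell, as given, and Socs3 fell by 2.15.

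Of the ERK feedback and immediate early genes 12 of 26 rose (46.2%, against 34.1% of all genes) and 6 fell (23.1%, against 26.8%), with a median of 0.15. Egr1 rose from 478, 514 and 483 to 2385, 2400 and 2485 (2.27), Fos from 298, 333 and 315 to 1104, 1092 and 1163 (1.78) and Ier2 by 1.29. Dusp6, the phosphatase that ERK induces and that limits it, rose from 412, 389 and 404 to 794, 774 and 742 (0.91). Egr2 and Atf3 fell, at -1.14 and -1.74. Among Tribbles genes and their partners, 8 of 15 fell (53.3%) and 5 rose (33.3%, near the 34.1% of all genes), all by less than 2-fold: Map2k1 (MEK1) was at -0.17, Map2k2 (MEK2) at -0.31, Braf at -0.78, Det1 at 0.28 and Ddb1 at 0.24. The other Tribbles genes also fell, Trib3 from 233, 222 and 250 to 122, 122 and 121 and Trib2 from 44.7, 36.1 and 40.5 to 22.5, 23.9 and 18.1, which is dim.

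Lists of cell cycle genes had small median differences beside these. Cyclins and their kinases showed 6 rises (42.9%) and 3 falls (21.4%) among 14 measured, with a median of 0.07 and a range of -1.55 to 1.17. DNA replication genes showed 29 rises and 0 falls among 37 measured, with a median of 0.29, and the clamp loader gene Rfc2 had the largest rise, from 792, 745 and 826 to 1641, 1638 and 1538 (1.01). The G2 and mitosis list showed 15 rises and 4 falls among 29 measured (median 0.13), and Mki67, the Ki-67 antigen, was among those that fell (-0.34). Top2a, a topoisomerase of dividing cells, was bright in both groups, at 1480, 1407 and 1458 in Ts1Cje and 1774, 1776 and 1708 in the lines.

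CDK inhibitors and p53 targets showed 18 rises and 3 falls among 25 measured (median 0.39). Cdkn2a, the locus of p16INK4a and ARF, was dim in Ts1Cje (12.5, 13.1 and 11.4) and at 325, 312 and 324 in the lines (3.62), and its neighbour Cdkn2b went from 43, 32.2 and 38.4 to 170, 173 and 168 (1.81). The p53 targets Zmat3 (1.14) and Phlda3 (1.04) rose too. Which of the 2 transcripts of Cdkn2a the probe set reads was not examined.

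Of the BCL2 family 7 of 17 rose and 7 fell (41.2% each, against 34.1% and 26.8% of all genes), and the median was 0.11, or -0.09 under the stricter filter. Bcl2 rose from 253, 224 and 243 to 1237, 1242 and 1172 (2.27) and Bcl2l1 (BCL-XL) by 0.54, while Mcl1 fell from 2929, 2696 and 2721 to 2012, 1995 and 2071 (-0.45) and Bcl2a1a fell by 1.92. For Bak1 (-0.86) another probe set passed the other way, at 0.29.

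MYC network and ribosome biogenesis genes showed 21 rise and 4 falls among 35 measured (median 0.24). Myc, named after its values were seen, rose from 754, 660 and 695 to 1345, 1354 and 1221 (0.88), and its antagonists Mxd1 and Mxi1 fell, at -1.47 and -1.35. Ribosomal protein genes showed 21 rise and 0 falls among 38 measured, by a median of 0.09.

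Metabolic lists had medians close to 0. Respiratory chain genes showed 23 falls and 2 rises among 37 measured with a median of -0.11, and ER and integrated stress genes showed 19 falls and 4 rises among 31 measured (median -0.17). Cholesterol and fatty acid synthesis genes showed 13 rises and 4 falls among 23 measured (median 0.22), including Scd1, from 709, 729 and 735 to 1886, 1886 and 1733 (1.32), and Lss (1.28). Iron and antioxidant genes showed 18 falls and 10 rises among 34 measured. Hmox1, heme oxygenase, fell from 924, 836 and 948 to 99.2, 78.4 and 83 (-3.18) and the iron exporter gene Slc40a1 fell by 2.37, while Nqo1 rose from 73.2, 62.7 and 65.4 to 386, 404 and 416 (2.35). The arginine transporter gene Slc7a2, which supplies arginase, fell with Arg1, from 902, 764 and 831 to 26.3, 20 and 25.5 (-4.44). Chromatin enzymes showed 17 rises and 4 falls among 27 measured (median 0.2), with Tet2 (-0.54) and Crebbp (-0.76) among the falls and Kdm1a (0.62) among the rises.

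Interferon response genes showed 27 rises and 5 falls among 38 measured (median 0.48). Rtp4 went from 160, 143 and 133 to 749, 815 and 835 (2.35), Ifi27l2a rose by 2.28, Rsad2 (viperin) by 2.24 and Usp18, the deISGylase that limits the response, from 206, 174 and 173 to 969, 942 and 925 (2.27). Irf1 and Gbp3 fell, at -0.85 and -1.39. The GTPase Tgtp1 rose from 418, 412 and 422 to 1608, 1591 and 1636 (1.91), and Tgtp1 has a near-identical copy, so its value may be shared. In the same comparison the trisomic interferon receptor genes Ifnar1 and Ifnar2, named after their values were seen, fell, at -1.17 and -0.42.

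Both groups are titled Ts1Cje, so by label no dose of the trisomic segment was contrasted. Copy number was not measured, and whether the lines kept the extra copy was not tested. Of 52 measured, 12 rose (23.1%) and 24 fell (46.2%), with a median of -0.06. On chromosome 16 outside the segment 35.4% of 364 genes rose and 26.9% fell, near the 34.1% and 26.8% of all genes. No test of this difference was made. In B6 Trib1 lines against B6 cells, 14 of the 52 segment genes rose and 24 fell, with a median of -0.1. The Ts1Cje difference minus the B6 difference had a median of 0.0 over these genes, and -0.11 with each array centred on its median log2 value. Itsn1, an endocytic scaffold gene, fell from 504, 509 and 514 to 73.3, 65.6 and 55.9 (-2.72), and the IL-10 receptor gene Il10rb from 1392, 1371 and 1384 to 275, 259 and 266 (-2.31). Dimmer probe sets of Itsn1 were at -2.23, -0.4, -0.09 and 0.05, and the last 2 did not pass. A dimmer probe set of Il10rb was at -0.75. Cbr3 (-2.67), Vps26c (-1.85), Tmem50b (-1.61) and the Ets factor gene Ets2 (-1.52) also fell. The rises were led by Fam3b (from 12.7, 14.2 and 14.1 to 67.6, 54.2 and 54.5, 1.36), the Ets factor gene Erg (from 270, 228 and 216 to 516, 510 and 500, 1.05) and Runx1 (from 373, 442 and 364 to 656, 661 and 736, 0.78).

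**Figure D4:**
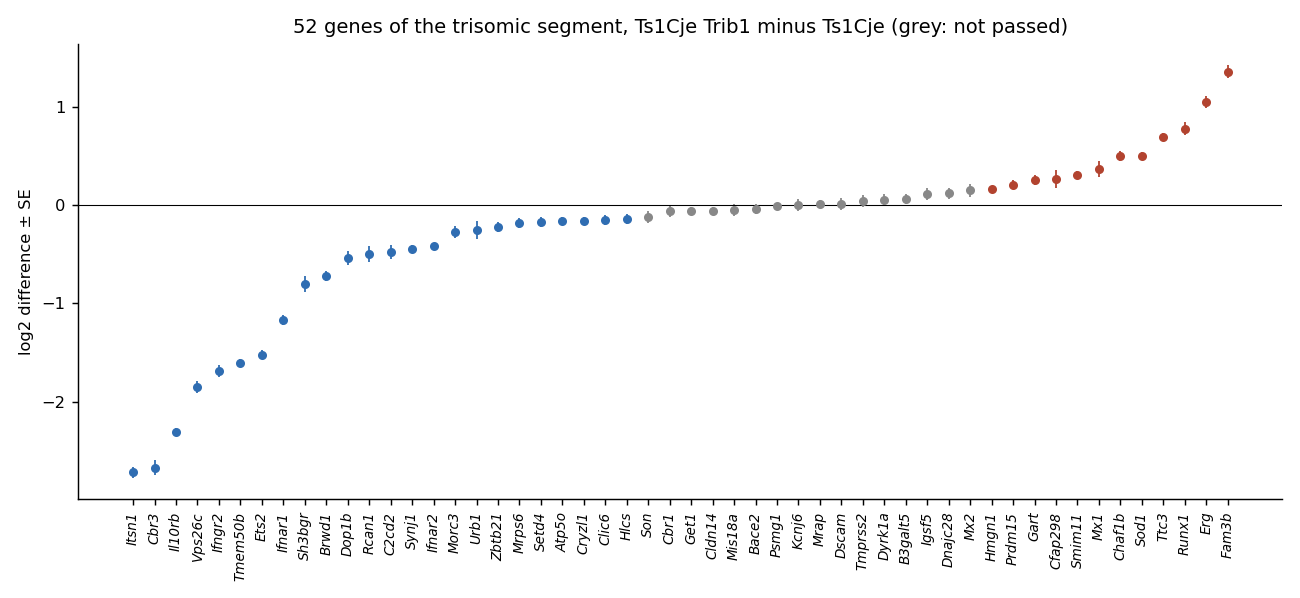
Log2 difference with its standard error for the 52 measured genes of the trisomic segment, ordered by value (red rose, blue fell, grey did not pass). With 1 probe set per gene, the differences run from -2.72 for Itsn1 to 1.36 for Fam3b, and 16 genes did not pass.

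The contrast of B6 Trib1 lines with B6 cells shares no array with this comparison. There 8193 genes passed (65.2%), 4282 up (34.1%) and 3911 down (31.1%), of which 340 (2.71%) and 521 (4.15%) differed at least 2-fold. This split depends on scaling: 4745 were up and 3415 down after quantile normalization, 3625 and 4128 after scaling to a common median, and 6441 and 2680 when each array's log2 values were centred on the median of the genes tested, a setting added after results of these data were known. Across the 12560 genes, which are not independent replicates, the 2 sets of differences correlated at 0.83 (Pearson) and 0.64 (Spearman), given as a description. Rises in both numbered 2441, or 57.0% of the rises in either background. Falls in both numbered 2473, or 73.5% of the falls in Ts1Cje and 63.2% of those in B6. Which direction was shared more often in Ts1Cje turned with centring, after which 73.8% of its rises (3032 genes) and 61.9% of its falls (1988 genes) were shared. Of the genes with the largest differences in Ts1Cje, Tph1 rose by 5.86 in B6, Mycn by 5.97 and Lif by 4.09, and Arg1 was at -7.01. The near equality for Mycn holds for the probe set used only. Its other probe sets were at 3.1 and 1.66 in Ts1Cje against 1.02 and 0.89 in B6.

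Differences between the backgrounds were tested as an interaction, which is the Ts1Cje difference minus the B6 difference. It passed for 6110 genes (48.6%), 3572 positive (28.4%) and 2538 negative (20.2%), and was at least 2-fold for 163 (1.3%) and 255 (2.03%). This balance depends on scaling: 58.5% of the calls were positive with the values as deposited, 50.1% after quantile normalization, 64.1% after scaling to a common median, and 35.5% after centring (2224 positive and 4042 negative). Centring shifted the median interaction from 0.01 to -0.1 and that of B6 from 0.03 to 0.14, while that of Ts1Cje stayed at 0.02.

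Secondary and tertiary granule genes had the interaction median furthest from 0 among the 44 lists, -2.12. All 24 fell in Ts1Cje, with a median of -2.35. The median in B6 was -0.03, with movement both ways: 8 of the 24 rose and 12 fell there. Over all genes, 34.1% rose and 31.1% fell in B6. The interaction was negative and passed for 22 of them, and for 22 to 23 under the other scalings. Ltf, for example, was at -0.15 in B6 against -2.72 here (interaction -2.57, limma adjusted p = 5.29e-12), and Camp at -1.04 against -3.77 (interaction -2.73). Fcnb, Cybb, Chil1 and Itgam fell in Ts1Cje and rose in B6, as did the eosinophil gene Prg2. Levels in the cells without Trib1 can differ between backgrounds as well. Another probe set of Cybb had means of 691 in Ts1Cje and 181 in B6 cells, and 124 and 376 in the respective lines.

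Of the 25 monocyte and macrophage genes, 23 fell in Ts1Cje and 21 in B6, with medians of -2.53 and -1.07. The interaction was negative for 21 and positive for 1. Vcan was at -2.4 here and -0.24 in B6 (interaction -2.16), and Csf1r at -3.11 and -1.05 (interaction -2.05). Cebpd also fell further in Ts1Cje, with -1.15 in B6 and an interaction of -2.0 (limma adjusted p = 4.97e-11), and Spi1 was at -0.49 in B6 (interaction -1.02). Lysosomal genes had 22 negative interactions and 2 positive of 26.

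B cell genes had the opposite relation. Their median was -1.72 here and -2.82 in B6, and 17 of 20 interactions were positive and 0 negative, under each scaling tried. Another probe set of Ms4a1 had means of 218 in Ts1Cje and 574 in B6 cells. It was dim in both sets of lines, at 11.4 and 10.8. Where a gene is dim in both sets of lines, the size of its fall follows its level in the cells without Trib1. How many members this holds for was not counted. Vpreb1 fell by 3.6 here and was at -5.49 in B6 (interaction 1.89). T and NK genes had 17 positive and 3 negative interactions of 25, where Gzma rose by 3.97 here and 1.61 in B6.

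Megakaryocyte and mast cell lists had interactions of both signs. Megakaryocyte genes had medians of 1.42 and 1.51 in Ts1Cje and B6, with 10 positive and 8 negative interactions of 21. Mast cell and basophil genes had 0.79 and 1.6, with 4 positive and 8 negative of 20, among them Fcer1a at 5.56 in B6 (interaction -1.22). Stem and progenitor genes had 16 positive and 2 negative of 25, and 12 and 2 after centring. Cd34, named after its values were seen, rose by 1.81 here and 0.42 in B6 (interaction 1.4), Sox4 by 1.77 and 0.27 (interaction 1.5), and Meis1 by 1.71 and 0.52 (interaction 1.2). Other probe sets of Sox4 were at -0.01, -0.1, 0.78 and -0.07 in B6, where only 0.78 passed. Their interactions were 1.28, 1.73, 1.12 and 0.72. The first of them had means of 132 and 338 in Ts1Cje cells and lines, and 262 and 260 in B6 cells and lines. Erg rose by 1.05 here and was at 0.01 in B6, with an interaction of 1.05 (limma adjusted p = 9.72e-07). Bcl2 rose in both, by 2.27 and 1.1 (interaction 1.18).

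Among lists with small differences, the scaling decides part of the count. Positive interactions in the interferon list numbered 27 and negative 2 with the values as deposited, and 17 and 5 after centring. For MYC and ribosome biogenesis they were 26 and 3 against 20 and 3, and for DNA replication 21 and 0 against 9 and 3. Cholesterol genes had 0 positive and 16 negative of 23, and 0 and 17 after centring.

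**Figure D5:**
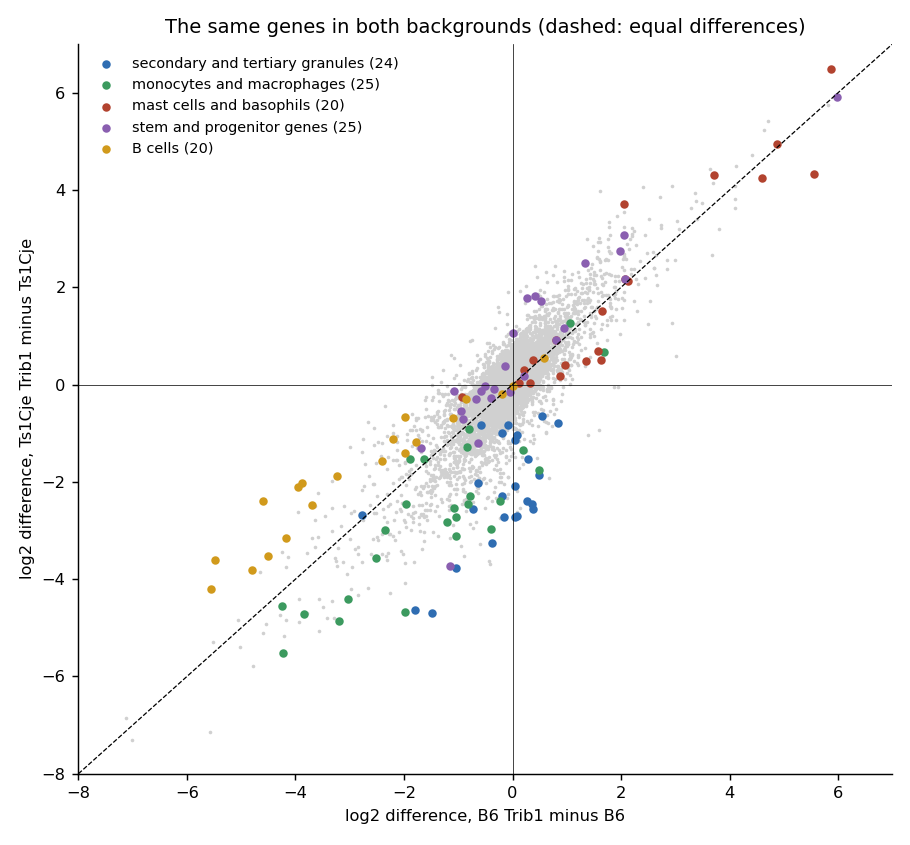
Log2 difference in the Ts1Cje background (vertical axis) against that in the B6 background (horizontal axis), with 1 grey point per gene, 5 lists in colour and a dashed line of equal differences. All 24 secondary and tertiary granule genes lie below 0 on the vertical axis (median -2.35) and on both sides of 0 on the horizontal axis (median -0.03). Of 20 B cell genes, 17 had a positive interaction that passed, which places them above the dashed line.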

How the data were processed

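Total RNA of 12 samples was hybridised to Affymetrix mouse arrays of perfect-match probes, 3 arrays per group. The deposited values are linear intensities per probe set. The submitters' processing notes name MAS5, a method built for arrays with mismatch probes, which these lack, and the scaling target and genome build are not given in the sources used here. No column was left unmapped.

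Of 45141 probe sets, 104 controls were left out, and 28898 have 1 gene symbol, 551 several and 15588 none. The deposited intensities were put on a log2 scale after adding 15 (the rounded 20th percentile). Probe sets above the array's 40th percentile on at least 3 of 12 arrays were kept, and each of 12560 genes was represented by its kept probe set of highest mean. Differences were fitted with limma 3.58.1 in R 4.3.3 with 1 mean per group over all 12 arrays and Benjamini-Hochberg adjustment. The fit was run on simulated data with far fewer changed genes than passed here, which does not check the counts. Same-numbered arrays of the 2 groups had deviations that correlated at 0.27, -0.17 and -0.04, so the numbers were not taken as pairs.

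The comparison, the 44 gene lists and the tests were chosen with earlier results of these data known. Genes are named by rule: Trib1, the 15 largest rises and falls, per list the 6 smallest adjusted p and the 2 largest differences each way, the 8 largest opposed interactions each way, and the Tribbles and C/EBP lists. Alternatives changed the normalization, offset, filter, probe set rule, variance moderation, arrays fitted and replicate block, and left out each of the 12 arrays in turn; the 6 left-out B6 and B6 Trib1 arrays were added after results were known.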

Additional observations from a re-analysis of the deposited data

Results flagged for a closer look

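For 16 genes the change from cells to Trib1 lines went in opposite directions in the Ts1Cje and B6 backgrounds, with both changes and the interaction passing in limma. They are the 8 largest interactions of each sign among 609 such genes with the values as deposited (408 up in Ts1Cje and 201 up in B6, or 166 and 355 after median centring).

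Of those that fell in Ts1Cje and rose in B6, 4 are granule or phagocyte genes: Fcnb, a ficolin (-2.56 and 0.38, interaction -2.94), Cybb, the oxidase subunit (-2.45 and 0.36, interaction -2.81), Chil1, a chitinase-like protein (-2.4 and 0.27, interaction -2.67), and Itgam, integrin CD11b (-1.86 and 0.48, interaction -2.35). Fcnb stood at 345, 358 and 353 in Ts1Cje, 49.6, 49.7 and 42.7 in Ts1Cje Trib1, 132, 136 and 127 in B6 and 181, 181 and 167 in B6 Trib1. Prg2, the eosinophil major basic protein, was at -0.93 and 1.59 (interaction -2.52), Mogat2, an acylglycerol transferase, at -1.92 and 0.68 (interaction -2.6), Pilra, an inhibitory myeloid receptor, at -1.04 and 1.39 (interaction -2.43) and Cd14, the lipopolysaccharide co-receptor, at -1.76 and 0.49 (interaction -2.26). These 8 kept both directions under quantile normalization, median scaling, median centring and averaging of the probe sets that share a gene.

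Of those that rose in Ts1Cje and fell in B6, Tgtp1, an interferon-induced GTPase, had the largest interaction, 2.0 (1.91 and -0.09), but its B6 change did not pass after quantile normalization (adjusted p = 0.0988 in limma) and was 0.02 after median centring (adjusted p = 0.684 in limma). Tnfsf10, the death ligand TRAIL, had 1.86 (1.59 and -0.27), and its B6 change did not pass after centring (limma adjusted p = 0.0555) or with the mean of its probe sets (limma adjusted p = 0.0592). Tspan13 had 1.74 (1.49 and -0.25), and -0.02 in B6 with the mean of its probe sets (limma adjusted p = 0.59). H2-Q4, a class I gene with close relatives, also had 1.74 (0.61 and -1.14), Gimap8 had 1.68 (0.89 and -0.79), Gata3 had 1.63 (0.55 and -1.07) and Xist had 1.65 (0.91 and -0.74). Arntl, the clock gene BMAL1, had 1.65 (0.16 and -1.49), its probe sets disagreed in Ts1Cje, and their mean gave 0.0 there.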

How the results depend on the processing

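The counts of genes that passed in Ts1Cje (also at least 2-fold), in B6 and in the interaction stayed within 1.5 times the value reported in 185 cases over all alternatives and did not in 3. Those came after median centring, a setting added after results of these data were known, with 6441 genes higher in B6 and 2224 positive and 4042 negative interactions. Centring also moved the number of genes up in Ts1Cje but down in B6 from 408 to 166, and the reverse from 201 to 355. The replicate numbers were not taken as pairs, and the labels do not say whether they are. With the number as a block, 4213 genes were higher and 3307 lower, 526 and 764 of them at least 2-fold, with 3421 positive and 2397 negative interactions and 4179 higher and 3840 lower in B6, and 2 of 6 arrays were most like their own number. Leaving out each of the 12 arrays in turn gave 3985 to 4322 genes higher, 3170 to 3394 lower, 520 to 545 at least 2-fold higher and 744 to 783 at least 2-fold lower, with 3180 to 3848 positive and 2126 to 3015 negative interactions and 3611 to 4505 higher and 3574 to 4030 lower in B6. Of 348 genes named by rule, 334 kept direction and side of the threshold under every alternative that could be computed. With probe sets of 1 gene averaged, Arntl came to 0.0, Irak1 to 0.05 and Rpl13 to -0.28, against 0.16, -0.13 and 0.21, since their probe sets differ in direction. List medians stayed within the spread between replicates in 1010 cases and moved beyond it in 46. The stricter filter moved the erythroid median from 0.11 to 0.77, the stem and progenitor median from 0.18 to 0.91 the T and NK median from -0.11 to -0.45, the eosinophil median from -0.23 to -0.5 and the BCL2 median from 0.11 to -0.09, since dim members drop out. Dim probe sets limit what low genes can show, since a fall cannot be followed below background.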

Other observations

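Sex-linked transcripts were measured in all 6 arrays. Xist, the RNA that silences an X chromosome, had 1070, 1104 and 1106 in Ts1Cje and 2030, 2000 and 2182 in Ts1Cje Trib1 (0.91). The probe sets used for the Y-linked genes were above the dim range on the same arrays, with Eif2s3y at 489, 439 and 419 and 397, 409 and 379, Kdm5d at 145, 142 and 124 and 184, 179 and 171, and Uty at 138, 101 and 98.2 and 190, 186 and 173. Other probe sets of Kdm5d were in or near the dim range, at means of 23.7 and 21.6 in Ts1Cje and 23.8 and 22.7 in Ts1Cje Trib1. The sex and pooling of the mice are not given in the sources used here.

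By chromosome, the median difference lay between 0.0 and 0.04 over the 20 chromosomes with more than 50 measured genes.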
